A study of Mus musculus with 6 samples.

Results

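The 10 genes described here mark the 2 ends of the epithelial to mesenchymal axis, and they were taken from the count table by symbol. Epcam, Cdh1, Krt8, Krt18 and Krt19 are used as epithelial markers, Cdh2 and Vim as mesenchymal markers, and Zeb1, Zeb2 and Twist1 encode transcription factors that hold cells in the mesenchymal state. Each symbol matched 1 row, so 10 of the 55487 genes of the table are covered. Values come from 6 subcutaneous tumors of CT26.WT, a wild-type colon carcinoma line of BALB/c origin, grown in immunocompetent BALB/c mice that the study's methods describe as young males. Mice of the control group (3 tumors) were given PBS and those of the IFN-γ group (3 tumors) were given recombinant mouse IFN-γ, both repeatedly through the tail vein. The tumors were sequenced whole, so that host macrophages, fibroblasts and vessels contributed RNA beside the cancer cells, and the cells grew under the skin and not in the colon. The labels do not state that each library came from a separate mouse, so p-values measure only the spread between these libraries, which may be technical.

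Epithelial cells hold together through E-cadherin (Cdh1) at their junctions and carry a cytoskeleton of paired keratins, in which a type I keratin (Krt18, Krt19) polymerizes with a type II keratin (Krt8). In the epithelial to mesenchymal transition (EMT), Zeb, Snail and Twist factors repress these genes, N-cadherin (Cdh2) takes the place of E-cadherin, and vimentin (Vim), a type III filament protein, becomes a main filament of the cell. Colon carcinomas often retain much of the epithelial program, while some transplantable lines have lost it.

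In GENCODE M21 on GRCm38, all 10 are protein-coding genes. The junction genes are Epcam (ENSMUSG00000045394) at chr17:87635979-87651129 on the plus strand and Cdh1 (ENSMUSG00000000303) at chr8:106603351-106670246 on the plus strand. The type II keratin gene Krt8 (ENSMUSG00000049382) at chr15:101996698-102004482 on the minus strand lies next to Krt18 (ENSMUSG00000023043) at chr15:102028180-102032027 on the plus strand, while the third keratin is Krt19 (ENSMUSG00000020911) at chr11:100140810-100148665 on the minus strand. The mesenchymal structural genes are Cdh2 (ENSMUSG00000024304) at chr18:16588877-16809246 on the minus strand and Vim (ENSMUSG00000026728) at chr2:13573927-13582826 on the plus strand. The transcription factor genes are Zeb1 (ENSMUSG00000024238) at chr18:5591860-5775467 on the plus strand, Zeb2 (ENSMUSG00000026872) at chr2:44983632-45117395 on the minus strand and Twist1 (ENSMUSG00000035799) at chr12:33957671-33959829 on the plus strand.

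Total counts ran from 15759300 to 17559680 per tumor. Levels are in CPM, counts scaled to a common library size with TMM factors. A count of 0 allowed up to 0.171 to 0.190 CPM, here by total counts without TMM factors. This is the level of 3 counts and covers counting error only. 2 tumors stood apart in host tissue. The summed level of 12 epidermis and hair follicle genes was 90.6 CPM in IFN-γ tumor 3 and between 10.4 and 20.0 CPM in the other 5 tumors, and Krt5 was at 0 counts in control tumor 3 and in IFN-γ tumors 1 and 2. The summed level of 8 skeletal muscle genes was 1031 CPM in control tumor 3 and between 154 and 555 CPM elsewhere. The methods give male hosts, yet the 4 Y-linked genes examined had counts in control tumor 1 only, where Ddx3y, the highest of them, had 9.

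Per kilobase of merged exon, Vim and Twist1 were the highest of the 10 genes in every tumor, while Krt18 reached the level of Zeb1. Cdh1, Epcam and Krt19 were far below the mesenchymal genes. In CPM not divided by length, Zeb2 came second, at 166 to 208 CPM against 56.7 to 78.2 CPM for Twist1. Krt18, at 6.41 to 10.4 CPM, was then below Zeb1, at 55.5 to 65.1 CPM. Merged exons pool all annotated transcripts, with 19942 bases for Zeb2 and 10266 for Zeb1 against 1628 for Twist1 and 1437 for Krt18. The ranks per kb depend on these lengths, and which transcripts were present was not tested. Compared per kilobase of merged exon, so that genes of different length can be ranked, Vim had a mean level of 1108 CPM per kb over the 6 tumors and stood in place 29 among 15102 genes. Twist1 followed at 39.5 CPM per kb, then Zeb2 at 9.47, Cdh2 at 8.59, Krt18 at 5.91 and Zeb1 at 5.77 CPM per kb. Krt8 had 1.44, Cdh1 0.423, Epcam 0.179 and Krt19 0.0847 CPM per kb. The mean of Krt8 rested on control tumor 3, and without that tumor it was 0.498 beside 0.400 CPM per kb for Cdh1. The ranges over the 6 tumors were apart between Vim and Twist1, between Twist1 and Zeb2, and between Cdh2 and Krt18. They overlapped for Zeb2 and Cdh2, for Krt18 and Zeb1, and for each pair of neighbors from Zeb1 down to Krt19.

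**Figure D1:**
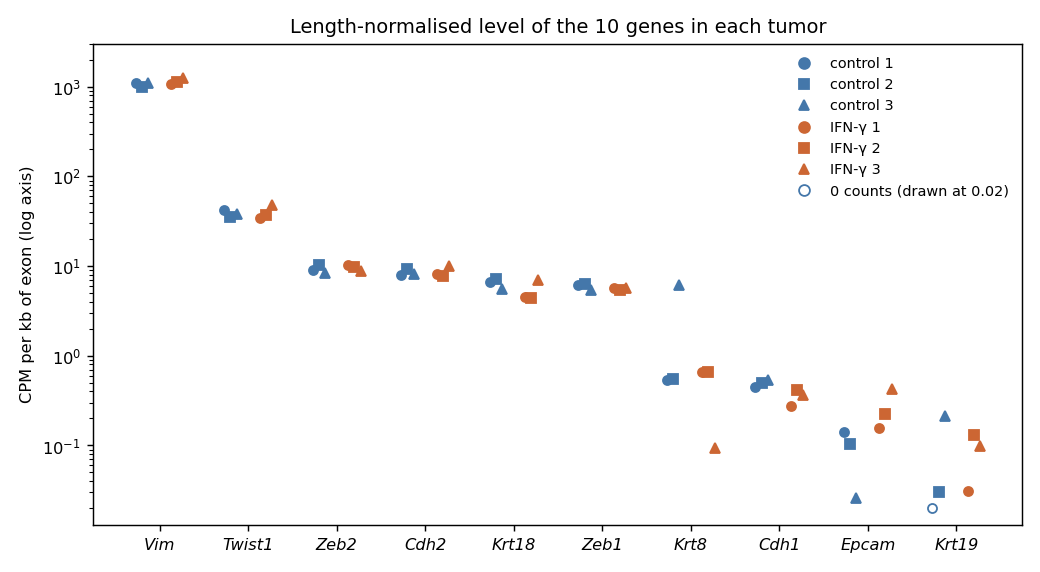
Level of each gene in CPM per kb of exon on a log axis, with genes ordered by their mean over the 6 tumors and 1 point per tumor (control in blue, IFN-γ in orange). Vim lies between 997 and 1243 CPM per kb in every tumor, Epcam and Krt19 stay at or under 0.422, and the Krt8 point of control tumor 3 lies at 6.15 against 0.654 or less in the others.

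None of the 10 genes passed the test between IFN-γ and control tumors. Of the 8 that had enough counts to be tested, 0 had an adjusted p under 0.05 in edgeR's quasi-likelihood test, 0 had an unadjusted p under 0.05, and DESeq2 and limma-voom called 0. Over all 15114 genes tested, 0.112% were called (0.0794% higher and 0.0331% lower in the IFN-γ tumors) and 10.2% had an unadjusted p under 0.05. The adjusted p of the 8 genes lay between 0.491 for Krt8 and 0.945 for Cdh2. Epcam and Krt19 were too low for this test. The CPM values of the groups did not overlap for 1 of the 8 tested genes, Cdh1, against 15.1% of all genes tested. The number of these genes called stayed at 0 in each of the 6 fits that left out 1 tumor.

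Vim varied little between tumors. It had 5168, 4727 and 5198 CPM in control tumors 1, 2 and 3 and 5141, 5394 and 5895 CPM in IFN-γ tumors 1, 2 and 3. The groups overlapped, and IFN-γ tumor 3 was the highest. The log2 fold change was 0.12 (standard error 0.083), a fold of 1.09 with a 95% interval from 0.954 to 1.24 (adjusted p = 0.678, edgeR). Vim is also expressed by macrophages, fibroblasts and endothelial cells. The summed level of 9 macrophage genes was 2168 to 2394 CPM in the control and 2297 to 3345 CPM in the IFN-γ tumors, and that of 10 fibroblast genes was 3446 to 5364 and 3452 to 5408 CPM. None of the markers of these 2 lists was at 0, and their part in the Vim level was not tested. In such bulk samples, fewer cells of a type and less RNA per cell cannot be told apart.

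Cdh2 had 64.9, 74.2 and 66.1 CPM in the control tumors and 66.5, 62.7 and 81.3 CPM in the IFN-γ tumors. The groups overlapped, and the highest and the lowest value both belonged to the IFN-γ group. The log2 fold change was 0.037 (95% interval for the fold 0.862 to 1.22, adjusted p = 0.945, edgeR), and -0.090 without IFN-γ tumor 3. Per length, Cdh2 exceeded Cdh1 in every tumor, from 15.3 times in control tumor 3 to 29.6 times in IFN-γ tumor 1, with a median ratio of 18.7.

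The 3 EMT transcription factors held their levels within narrow bounds. Zeb1, a zinc finger repressor of Cdh1, had 63.2, 65.1 and 55.6 CPM in the control and 58.0, 55.5 and 57.8 CPM in the IFN-γ tumors, a fold of 0.932 (95% interval 0.817 to 1.06, adjusted p = 0.741, edgeR). Its paralog Zeb2 had 181, 208 and 166 CPM in the control and 206, 197 and 176 CPM in the IFN-γ tumors, a fold of 1.04 (95% interval 0.886 to 1.23, adjusted p = 0.888, edgeR). Twist1, a basic helix-loop-helix factor, had 68.9, 58.0 and 62.4 CPM in the control and 56.7, 61.1 and 78.2 CPM in the IFN-γ tumors, a fold of 1.04 (95% interval 0.845 to 1.27, adjusted p = 0.933, edgeR). The groups of all 3 overlapped, and across the 6 tumors the highest value was 1.17 times the lowest for Zeb1, 1.25 times for Zeb2 and 1.38 times for Twist1. The fold of Twist1 depended on IFN-γ tumor 3, without which its log2 fold change was -0.11, and that of Zeb2 was -0.020 without control tumor 3.

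Zeb2 is expressed by macrophages too, and the ratio of Zeb2 to Zeb1 per length was between 1.47 and 1.64 in the control tumors and 1.82, 1.83 and 1.56 in the IFN-γ tumors. IFN-γ tumors 1 and 2, with the higher ratios, were also those with the highest sums of macrophage genes, 3061 and 3345 CPM. The part of macrophages in this ratio was not tested. The antisense gene Zeb2os shares 653 exon bases with Zeb2, which is 3.27% of the exon length of Zeb2, and had 621 counts in all against 19121 for Zeb2. The strandedness of the counts is not given in the sources used here, so reads in that stretch cannot be assigned to 1 strand.

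The epithelial genes were low, and Epcam and Krt19 were close to the limit of detection. Cdh1 had 33, 40 and 43 counts in the control and 22, 31 and 27 counts in the IFN-γ tumors, or 2.06, 2.25 and 2.45 CPM against 1.28, 1.89 and 1.67 CPM. Each IFN-γ tumor lay below each control tumor, as in 7.5% of all genes tested, while 7.63% were apart in the opposite direction. The log2 fold change was -0.49 (standard error 0.27), a fold of 0.714 with a 95% interval from 0.467 to 1.09 (adjusted p = 0.585, edgeR), and it was between -0.62 and -0.34 in the fits that left out 1 tumor. With 196 counts over the 6 tumors, a difference of this size was not separable from the spread between tumors.

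Epcam, an adhesion molecule of epithelial cell membranes, had 5, 4 and 1 counts in the control and 6, 8 and 15 counts in the IFN-γ tumors. Averaged by group, this was 0.198 ± 0.130 CPM without and 0.587 ± 0.302 CPM with IFN-γ (SD, n = 3 each). Each IFN-γ tumor was above each control tumor, as in 7.63% of all genes tested, a set that Epcam was too low to enter. The nearest values were 6 counts in IFN-γ tumor 1 and 5 in control tumor 1 (0.348 and 0.312 CPM). The two-sided exact permutation test of the mean gave p = 0.1, a value below which a design of 3 and 3 tumors cannot go. Any full separation of the groups gives this value, so the test adds nothing to the separation. The difference of the means was 0.389 CPM, and 0.220 CPM without IFN-γ tumor 3, the tumor with the epidermal genes. The part of skin in that value was not tested. Krt19 had 0, 1 and 7 counts in the control and 1, 4 and 3 in the IFN-γ tumors, and the means of 0.152 ± 0.216 and 0.162 ± 0.0951 CPM (SD, n = 3 each) did not differ beyond their spread (exact permutation test, p = 0.9).

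The sequence before the Epcam start site is shown because Zeb and Snail factors bind E-boxes, of which CACCTG is the common form in the promoters they repress. The 250 bases before the RefSeq start of Epcam (GRCm38.p6, chr17:87635729-87635978, plus strand) are given from 5′ to 3′, with CACCTG and its reverse complement CAGGTG in capitals.
Epcam: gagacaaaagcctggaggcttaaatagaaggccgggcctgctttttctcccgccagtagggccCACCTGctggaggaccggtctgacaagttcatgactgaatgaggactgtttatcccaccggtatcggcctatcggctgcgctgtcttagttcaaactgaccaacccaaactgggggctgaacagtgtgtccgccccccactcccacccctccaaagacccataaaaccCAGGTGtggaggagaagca
The window held 2 matches, the first base of which lay 187 and 19 bases before the start. Krt18 had 1 match in the same span, shown with 12 bases on either side (chr15:102027990-102028019, plus strand, 214 bases before the start).
Krt18: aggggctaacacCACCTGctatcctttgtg
The window of Vim, that of Twist1 and the 4 windows of Zeb2, some of which overlap each other, held no match. The Vim window (chr2:13574061-13574310), which precedes a RefSeq start, lay inside the GENCODE span of Vim. Of the Zeb2 windows, only that at chr2:45117443-45117692 lay outside the GENCODE span of Zeb2. Of all 32851 windows of this length, 17.2% held at least 1 match and 2.06% held at least 2. These are letters of the reference genome, not sites shown to be bound, and windows of the remaining genes are not reported here.

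Krt8 and Krt18, which form the first keratin pair of simple epithelia, did not follow each other across the tumors. Krt18 had 9.62, 10.4 and 8.05 CPM in the control and 6.55, 6.41 and 9.94 CPM in the IFN-γ tumors. IFN-γ tumors 1 and 2 were below every control, and IFN-γ tumor 3 lay among the controls. On the log2 scale, Krt18 differed by -0.29 (standard error 0.21, adjusted p = 0.705, edgeR), and by -0.54 without IFN-γ tumor 3 (adjusted p = 0.178, edgeR).

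Krt8 had 17 and 19 counts in control tumors 1 and 2, 211 in control tumor 3, then 22, 21 and 3 in the IFN-γ tumors. In CPM these were 1.06, 1.07 and 12.04 in the control and 1.28, 1.28 and 0.185 in the IFN-γ tumors. The highest value was 65.0 times the lowest, against 1.62 times for Krt18. The log2 fold change of -2.36 (standard error 1.03, adjusted p = 0.491, edgeR) rested on control tumor 3, and it was -0.22 (standard error 0.67) without that tumor.

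Control tumor 3 was also the tumor with the most skeletal muscle RNA, 1031 CPM over 8 genes of which none was at 0 in any tumor, and its Acta1, the actin of skeletal muscle fibers, had 6081 counts against 865 to 2528 elsewhere. Ordered by the root mean square difference of log2(CPM + 0.5) centered over the 6 tumors, the tested genes nearest to Krt8 were Mybph, Abra and Actn3, at 0.56, 0.57 and 0.58 log2 units beside a standard deviation of 1.39 for Krt8 itself. Mybph and Actn3 encode sarcomere proteins and Abra an actin-binding protein of striated muscle. The low value of Krt8 in IFN-γ tumor 3 and that tumor's muscle sum of 175 CPM, the second lowest of the 6, went together, while control tumor 1 had a lower sum of 154 CPM with 1.06 CPM of Krt8. Epithelial genes were mixed in control tumor 3. F11r had 285 counts there against 153 to 224 elsewhere, Spint1 21 against 5 to 12, and Krt19 7 against 0 to 4. Spint2 had 67 against 33 to 56, and Cdh1 43 against 22 to 40. At lower counts, Ap1m2 had 11 against 1 to 5 and Vil1 5 against 0 to 2. Going the other way, Epcam had 1 count there against 4 to 15 elsewhere, and Dsp 5 against 11 to 105. Pkp1 had 0 counts there against 1 to 54. These genes were picked with their values in view. The part of muscle or of other epithelial cells in the Krt8 counts was not tested. The pseudogene Krt8-ps had 1 count in the 6 tumors together.

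**Figure D2:**
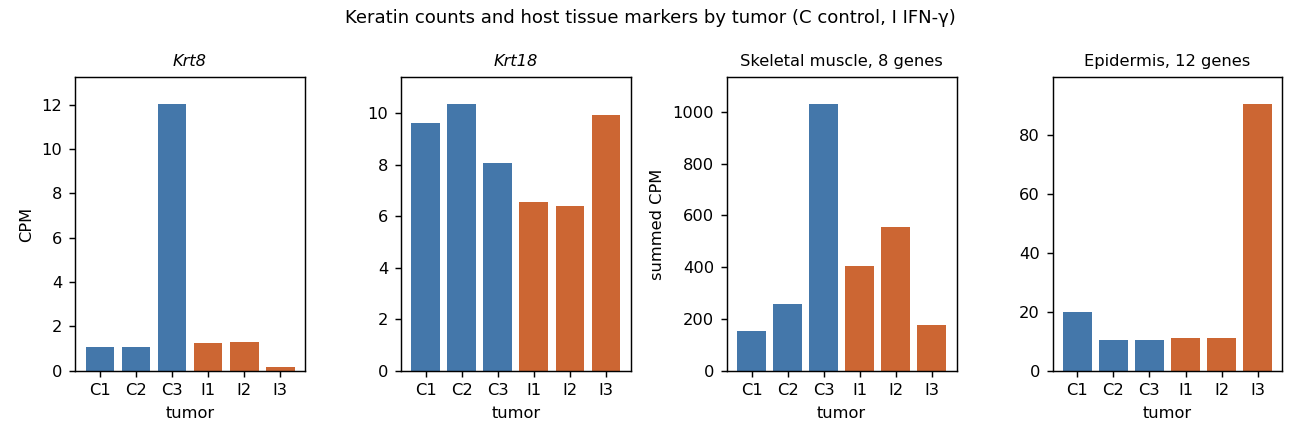
Bars give the CPM of Krt8 and Krt18 and the summed CPM of 8 skeletal muscle and 12 epidermal genes in each tumor (C control in blue, I IFN-γ in orange), each panel with its own linear axis from 0. Control tumor 3 is the highest for Krt8 (12.04 CPM) and for muscle (1031 CPM), and IFN-γ tumor 3 is the highest for epidermis (90.6 CPM).

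The fold changes with their intervals show how far each gene was resolved. Vim and Zeb1 had the narrowest intervals, with standard errors of 0.083 and 0.082 on the log2 scale, followed by Zeb2 at 0.10, Cdh2 at 0.11 and Twist1 at 0.13. For these 5 genes the intervals of the fold lay between 0.817 and 1.27. The standard errors of Krt18, Cdh1 and Krt8 were 0.21, 0.27 and 1.03, the last being 0.67 without control tumor 3.

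**Figure D3:**
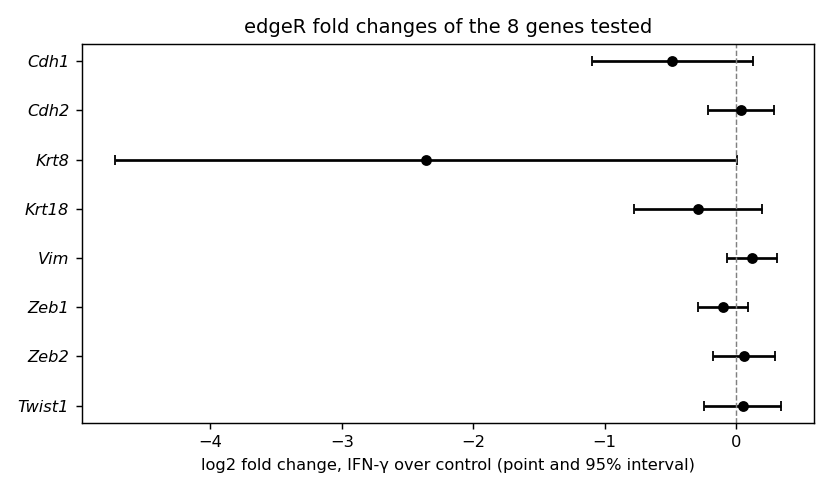
Points are edgeR log2 fold changes of IFN-γ over control tumors for the 8 genes tested, with 95% intervals as bars (n = 3 tumors per group). Every interval includes 0, and that of Krt8 is the widest, with a point at -2.36.

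Other genes of the epithelial program were mostly low or absent. Of 60 genes in 4 lists, 21 had enough counts to be tested. Of these, 0 passed in edgeR and 3 (14.3%, beside 10.2% of all genes) had an unadjusted p under 0.05. DESeq2 called 1 of them (191 of 26868 over all genes) and limma-voom 0 (13 of 15114). The median log2 fold change of the 21 genes was -0.053, against 0.0015 over all genes tested, and 7 of them (33.3%) did not overlap between the groups, beside 15.1% of all genes.

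For intestinal identity, 2 of 14 genes were tested. Cdx2, Hnf4a, Slc26a3 and Car1 had 0 counts in every tumor, and 9 of the 14 genes, these included, had no more than 3 counts in any tumor, so most of these defining genes of the labelled colon origin were absent or near 0. The 2 tested genes were Lgals4, a galectin of gut epithelium, at 4.35 CPM in the control and 3.07 CPM in the IFN-γ group, and Cdh17, the liver-intestine cadherin, at 1.66 and 1.58 CPM. Among regulators that keep cells epithelial, Ovol2 had 0 counts in every tumor, Grhl2 at most 11 and Esrp1 at most 6 counts in a tumor. Of the 16 epithelial regulators and proteases, 4 were tested, of which Klf5, a zinc finger factor, was the highest at 34.2 CPM in the control and 28.1 CPM in the IFN-γ group (log2 fold change -0.28, adjusted p = 0.670, edgeR). St14, the protease matriptase, had a log2 fold change of 0.63 (standard error 0.45) and Spint2, its inhibitor, one of 0.0033 (standard error 0.30).

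Some genes of the junction list were well expressed. Itgb4 and Itga6, which encode the 2 chains of the hemidesmosome integrin, had 459 ± 37.8 and 313 ± 26.9 CPM in control tumors and 356 ± 5.05 and 257 ± 21.9 CPM in IFN-γ tumors (SD, n = 3 each). Their log2 fold changes were -0.37 (standard error 0.081, adjusted p = 0.222, edgeR) and -0.28 (standard error 0.096, adjusted p = 0.379, edgeR). Each IFN-γ tumor lay below each control for both genes, as in 7.5% of all genes tested. For Itga6 the gap was minimal, with 282.1 CPM in IFN-γ tumor 3 and 282.5 CPM in control tumor 3. DESeq2 called Itgb4 lower (adjusted p = 0.00756, DESeq2). The tight junction claudins Cldn3 and Cldn7 had 0 and 1 counts in all. Dsp, the desmosomal linker desmoplakin, had 25, 23 and 5 counts in the control and 12, 11 and 105 in the IFN-γ tumors, the last in the tumor with the epidermal genes. Tjp3, a junction scaffold, had a log2 fold change of 0.88 (standard error 0.43, adjusted p = 0.532, edgeR).

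Keratins other than the canonical pair were the main ones. Krt20, a type I keratin of gut and urothelium, had the highest level of the 7 simple keratins examined, at 58.4 to 140 CPM per kb in the 6 tumors, and Krt80, a type II keratin, had 5.90 to 8.86 CPM per kb. Krt7 and Krt23 had at most 6 and 2 counts in a tumor. Summed per length, the type I keratins of this set exceeded the type II keratins 8.68-fold to 10.5-fold in 4 tumors, 6.12-fold in control tumor 3 and 19.3-fold in IFN-γ tumor 3, the tumors that stood apart in host tissue. Krt20 had 2791, 2688 and 2781 counts in the control, and 2054, 1846 and 4375 in the IFN-γ tumors. Its log2 fold change came to 0.051 (standard error 0.30, adjusted p = 0.979, edgeR) with all 6 tumors. Without IFN-γ tumor 3 it was -0.49 (adjusted p = 0.0247, edgeR) and passed the threshold, as did Klf5 at -0.56 (adjusted p = 0.0365, edgeR). The fit without that tumor called 493 of 15487 genes, against 17 of 15114 with all 6 tumors. In control tumor 3, where Krt8 was high, Krt20 was level with the other controls.

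**Figure D4:**
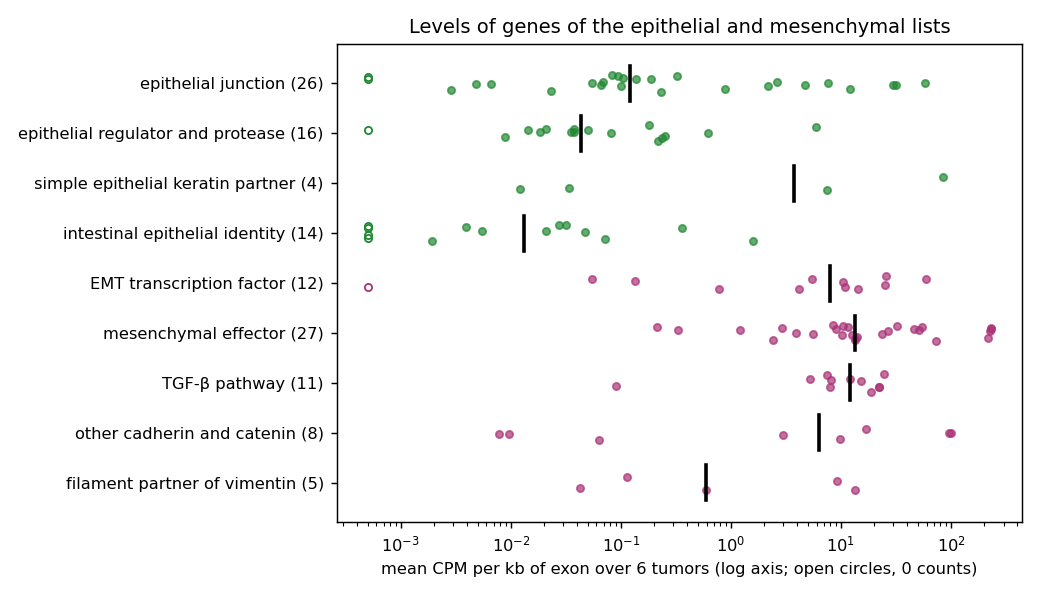
Mean level over the 6 tumors in CPM per kb of exon on a log axis for each gene of 9 lists (points, with the number of genes in parentheses; epithelial lists in green, mesenchymal lists in purple; open circles are genes with 0 counts; black bars are medians). The median was 0.121 CPM per kb for junction genes and 0.0131 for intestinal genes, against 7.90 for EMT transcription factors and 13.3 for mesenchymal effectors.

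The mesenchymal program was expressed broadly. Of 63 further genes in 5 lists, 55 were tested. Of these, 0 passed in edgeR and 15 (27.3%, beside 10.2% of all genes) had an unadjusted p under 0.05. DESeq2 called 3 of them (191 of 26868 over all genes) and limma-voom 0 (13 of 15114). The median log2 fold change was -0.034, and 14 of the 55 genes (25.5%) did not overlap between the groups, beside 15.1% of all genes. The summed level of 8 pericyte and smooth muscle genes, cells that also express much of this program, was 328 to 374 CPM in the control and 228 to 290 CPM in the IFN-γ tumors, with none at 0 and 1 of the 8, Abcc9, called lower (log2 fold change -1.25, adjusted p = 0.0293, edgeR). Their part in these genes was not tested.

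Among the other EMT transcription factors, 10 of 12 were tested. Hmga2, a chromatin protein of embryonic and tumor cells, and Prrx1, a homeobox factor of mesenchyme, were the most abundant, at 456 and 276 CPM in the control group and 346 and 278 CPM in the IFN-γ group. Hmga2 had a log2 fold change of -0.40 (standard error 0.16, adjusted p = 0.453, edgeR), and -0.62 (adjusted p = 0.0242, edgeR) without IFN-γ tumor 3. The latter fit called 493 of 15487 genes. Foxc2, a forkhead factor, had a log2 fold change of -0.78 (standard error 0.30, adjusted p = 0.422, edgeR) at 2.66 CPM in the control group, and Klf8 one of 0.99 (standard error 0.60, adjusted p = 0.632, edgeR) at 0.465 CPM. The Snail genes Snai1 and Snai2 had log2 fold changes of 0.094 and -0.036, and Twist2, the paralog of Twist1, one of -0.16.

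All 27 mesenchymal effector genes were tested. Fn1, fibronectin of the matrix, had 2860 ± 380 CPM in the control and 2393 ± 96.0 CPM in the IFN-γ group (SD, n = 3 each; log2 fold change -0.26, adjusted p = 0.446, edgeR), and Axl, a receptor tyrosine kinase, had 1138 and 1176 CPM. Wnt5a and Ncam1 had the largest fold changes of the list, -1.01 and -0.997 on the log2 scale, at 3.45 and 2.48 CPM in the control group, and neither passed (adjusted p = 0.411 and 0.389, edgeR). 2 genes chosen after their values were seen passed in other fits. Cd44, the hyaluronan receptor, had 559 ± 13.6 CPM in the control and 426 ± 28.6 CPM in the IFN-γ group (SD, n = 3 each), with each IFN-γ tumor below each control (log2 fold change -0.39, standard error 0.077, adjusted p = 0.168, edgeR). Ccn2, a matricellular protein, had a group difference of 0.80 on the log2 scale (adjusted p = 0.352, edgeR). Its groups were apart only narrowly, at 33.3 CPM in IFN-γ tumor 3 and 32.6 CPM in control tumor 3 (540 and 572 counts). Of all genes tested, 7.63% were apart in the direction of Ccn2 and 7.5% in that of Cd44. DESeq2 called Cd44 and Ccn2 (adjusted p = 0.00186 and 0.0495, DESeq2).

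Of 11 genes of the TGF-β pathway, a main inducer of EMT, 10 were tested, with a median log2 fold change of 0.017. Tgfbr2 and Smad3, a receptor and a signal transducer, were the most abundant, at 181 and 141 CPM in the control group and 183 and 130 CPM in the IFN-γ group. Tgfbr1, the partner receptor, and Skil, a feedback inhibitor, differed by 0.24 and 0.28 on the log2 scale (adjusted p = 0.399 and 0.392, edgeR). Without IFN-γ tumor 3, Skil passed the threshold, higher by 0.37 (adjusted p = 0.0305, edgeR), in a fit that called 493 of 15487 genes.

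Of the other cadherins and catenins, Ctnna1 and Ctnnb1, the α- and β-catenins that link any classical cadherin to actin, had log2 fold changes of 0.025 and -0.011, at 610 and 519 CPM in the control group. Cdh5, the endothelial cadherin, had a log2 fold change of -0.39 (standard error 0.12, adjusted p = 0.349, edgeR). The summed level of 8 further endothelial genes was 210 to 258 CPM in the control and 173 to 235 CPM in the IFN-γ tumors. Cdh13, a cadherin without a cytoplasmic tail, had one of -0.10 (standard error 0.091). Among filament proteins that can join vimentin, Nes had a log2 fold change of -0.30 (standard error 0.11, adjusted p = 0.424, edgeR). Des, the desmin of muscle, had 1464 counts in control tumor 3 against 239 to 643 in the other tumors, and control tumor 3 was also the one with the high Krt8 and muscle counts.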

How the data were processed

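The deposited table held raw read counts, whole numbers per gene and tumor. The submitters' processing notes name HISAT2 and the build mm10. The counting program, the annotation and the strandedness are not given in the sources used here. All 6 columns were used.

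CPM was calculated from these with TMM scaling, and groups were compared with edgeR 4.0.16 in R 4.3.3 (default filter on low counts, quasi-likelihood test, Benjamini-Hochberg adjustment over the 15114 genes tested, threshold 0.05). The standard error was the log2 fold change divided by the square root of F. For genes under the filter, mean CPM was tested by exact permutation. Alternatives were DESeq2 1.42.0, limma 3.58.1 (voom), other scalings and filters, a replicate block and fits without 1 tumor each. Levels per kb used merged exons of GENCODE M21 on GRCm38, which held 99.5% of the identifiers. Promoter sequences came from RefSeq on GRCm38.p6. Total counts of 15759300 to 17559680 limit the low genes. Scripts were tested on simulated data with 200 genes changed 2-fold. There edgeR recovered 65.5% of them with 16 false calls, DESeq2 74% with 45 and limma-voom 64% with 15.

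The 10 genes and all lists were chosen with earlier results of these data known. Named genes were the 10 genes and, from each list, any gene past the threshold, the 2 highest in CPM and the 2 with the largest fold change. A few others were picked with their values in view. Some items that entered the counts are not reported here. The replicate numbers were not taken as pairs, since same-numbered tumors did not deviate together.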

Additional observations from a re-analysis of the deposited data

How the results depend on the processing

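The number of the 10 genes past the threshold was 0 under all 14 alternatives run. Over all genes, 17 passed, and 11 with library size only, 220 with no filter on low counts, 191 with DESeq2 and 6 to 493 in the fits without 1 tumor, the highest without IFN-γ tumor 3. Of the epithelial lists, 0 genes passed, against 1 with DESeq2 and 0 to 2 without 1 tumor. Of the mesenchymal lists, 0 passed, against 3 with no filter on low counts, 3 with DESeq2 and 0 to 4 without 1 tumor. The highest numbers of both came without IFN-γ tumor 3. Both groups carry replicate numbers 1 to 3, and with these numbers as a replicate block 7 genes passed in all. Same-numbered tumors had correlations of -0.24, -0.0047 and -0.22 in their deviations from the group means, no tumor of either group correlated best with its own number, and the numbers were not taken as pairs.

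For the 8 tested genes, 108 of 112 comparisons with an adjusted p kept direction and side of the threshold, and 4 changed sign, all in fits without 1 tumor. Across these fits the log2 fold change was -0.090 to 0.11 for Cdh2, -0.020 to 0.15 for Zeb2 and -0.11 to 0.14 for Twist1, and the difference in mean CPM of Krt19 was -0.0655 to 0.134. The log2 fold change of Krt8 ranged from -2.83 to -0.22. Apart from the tumors left out, the cause was not tested. Epcam, Krt19, Cdh1 and Krt8 had only 39, 16, 196 and 293 counts in all, of which 211 of Krt8 were in control tumor 3, and how far depth sets their errors was not tested.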

Other observations

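By the root mean square difference of log2(CPM + 0.5) centered over the 6 tumors, among 15113 other genes, Faim2, Gls2 and Gm4813 were nearest to Cdh1 at 0.059 to 0.067 log2 units, Msto1, Wdr92 and Hnrnpa0 were nearest to Vim at 0.0083 to 0.018, and Rad9a, Aff4 and Araf were nearest to Zeb1 at 0.016 to 0.020. The standard deviation of these genes themselves was 0.26 for Cdh1, 0.10 for Vim and 0.096 for Zeb1, so that near neighbors of the last 2 are also genes that vary little.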
